A study of Rattus norvegicus with 6 samples.

Results

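Airway secretory proteins were examined in the rat thyroid, comparing late pregnancy (LP, day 18) with the non-pregnant state (NP). The group held 8 genes: the secretoglobins Scgb1a1, Scgb3a1 and Scgb3a2, the lipid-binding protein Bpifa1, the gel-forming mucin Muc5b, the surfactant proteins Sftpa1 and Sftpd, and the lectin Reg3g. They were chosen by name, and with the LP and NP values of these samples already known, so no p-value is given for them, and whether one met the criteria of the edgeR fit is given as a description that supports nothing. Of the 8 genes, 7 were found among the 15388 genes of the count tables, and Reg3g was not analysed here. RNA-seq had been carried out on polyA RNA from thyroids of adult Sprague-Dawley rats, a common outbred laboratory strain, with 3 samples from NP rats and 3 from LP rats. The labels name no drug or genetic change in either group, and LP rats had been mated by overnight co-caging, the morning of the vaginal plug being counted as the first day. Each sample was RNA of the tissue as a whole, so a lower read count can mean fewer cells of a type or less RNA per cell, and these cannot be told apart.

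Secretoglobins are small secreted proteins made in abundance by club cells, the dome-shaped secretory cells of the airway lining. Together with BPIFA1, mucins, collectins and antimicrobial lectins, they form the fluid that coats the respiratory mucosa, traps particles and binds microbes. The thyroid and the lung both arise from foregut endoderm and both depend on the homeodomain factor NKX2-1, which binds the promoters of thyroglobulin in the thyroid and of surfactant and secretoglobin genes in the lung. The trachea lies directly behind the thyroid isthmus, and the parathyroids and the strap muscles of the neck adjoin the gland.

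The promoters of the 3 members with the largest LP to NP differences, and of Sftpa1 for contrast, are shown because these 3 genes differed in the same direction. The sequences are those of RefSeq on the GRCr8 build, from 250 bases before to 50 bases after the start of the gene, written 5′ to 3′ on the strand of the gene. Capitals mark CTTGAG, which is the NKX2-1 core CTCAAG read on the other strand, and TATAAA, the TATA box. Neither motif overlapped the other.
Scgb1a1 (chr1:215409637-215409936, minus strand): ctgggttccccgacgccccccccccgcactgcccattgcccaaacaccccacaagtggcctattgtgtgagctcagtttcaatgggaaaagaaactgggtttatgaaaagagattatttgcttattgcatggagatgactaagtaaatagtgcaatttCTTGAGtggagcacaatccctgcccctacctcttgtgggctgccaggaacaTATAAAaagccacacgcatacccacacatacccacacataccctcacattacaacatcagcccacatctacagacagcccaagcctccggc
Scgb3a1 (chr10:34468916-34469215, plus strand): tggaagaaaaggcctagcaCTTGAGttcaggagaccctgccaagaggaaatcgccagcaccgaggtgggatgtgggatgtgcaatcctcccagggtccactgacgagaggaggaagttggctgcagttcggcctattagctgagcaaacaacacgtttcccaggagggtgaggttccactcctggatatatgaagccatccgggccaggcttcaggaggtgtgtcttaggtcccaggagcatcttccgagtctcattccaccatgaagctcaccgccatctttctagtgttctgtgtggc
Bpifa1 (chr3:163087715-163088014, plus strand): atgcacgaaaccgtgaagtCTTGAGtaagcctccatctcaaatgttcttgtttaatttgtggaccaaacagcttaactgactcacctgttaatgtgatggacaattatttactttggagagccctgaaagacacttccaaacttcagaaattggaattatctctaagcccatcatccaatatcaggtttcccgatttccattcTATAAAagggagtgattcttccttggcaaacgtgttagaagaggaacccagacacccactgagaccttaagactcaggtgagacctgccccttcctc
Sftpa1 (chr16:17042014-17042313, plus strand): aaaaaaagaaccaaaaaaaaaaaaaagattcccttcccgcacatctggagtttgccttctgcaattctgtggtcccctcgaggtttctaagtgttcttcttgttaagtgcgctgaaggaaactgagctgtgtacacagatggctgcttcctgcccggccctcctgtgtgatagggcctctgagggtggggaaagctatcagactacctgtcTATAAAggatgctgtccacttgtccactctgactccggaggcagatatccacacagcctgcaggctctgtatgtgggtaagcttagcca

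Promoters were given for 6 of the 8 genes. The NKX2-1 core lay on the reverse strand at position -92 from the start in Scgb1a1, at -231 in both Scgb3a1 and Bpifa1, and at -229 in Scgb3a2. It was not among the letters of these windows in Sftpa1 or Reg3g. Searched on both strands, it occurred in 15.8% of 33469 rat promoters of the same length. TATAAA was found at -41 in Scgb1a1, -47 in Bpifa1, -39 in Sftpa1 and -32 in Reg3g, and in 14.2% of all promoters. The forkhead letters TATTTAC were present in Scgb1a1 at -108 and in Bpifa1 at -145 (3.51% of all promoters), and the other forkhead form, TGTTTAC, in none of the 6 (3.78%). The C/EBP letters TTGCNNAA were present in Scgb1a1 at -215 and in Sftpa1 at -194 (10.6% of all promoters). These matches describe the sequence and are not evidence of binding.

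The libraries held between 2752144 and 2965936 counted reads in NP and between 3224104 and 3449857 in LP, so 3 reads, taken as the lowest level the depth can show, corresponded to 0.889 to 1.07 CPM (the reads of a gene after libraries were brought to the same depth). Intervals and this limit cover counting error only. Replicates 2 and 3 of a group differed by no more than sampling noise (chi-square per gene 1.02 in NP and 0.995 in LP), whereas replicate 1 stood apart from them (3.70 to 4.11), so replicates 2 and 3 were counted as 1 sample in each mean ± SD (n = 2) and folds are also given within replicate 1 and within replicates 2 and 3. Genes of thyroid follicular cells made up 231831 to 258572 CPM in every sample. By edgeR's quasi-likelihood test, at an adjusted p-value below 0.05 and more than a 2-fold difference, 575 of 11738 genes (4.9%) were up-regulated and 63 (0.537%) were down-regulated in LP. This fit used the 6 libraries as deposited and gave the SEs and adjusted p-values of list genes. The SEs of members and the adjusted p-value of Amy1a came from the same fit without its filter on low counts. Replicates 2 and 3 entered both as separate samples, which may understate the error. When replicates 2 and 3 were added together in the filtered fit, the calls numbered 606 up and 63 down. Scgb1a1, Scgb3a1 and Bpifa1 were among the calls with and without this summing.

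Scgb3a1, Bpifa1 and Scgb1a1, all secreted by airway epithelium, had more reads in every LP sample than in any NP sample, at ratios of summed reads between 3.06 and 9.91. The surfactant proteins Sftpa1 and Sftpd, the members with the most reads, were at similar levels in both groups, and Scgb3a2 and Muc5b had no more than 3 reads in any sample. Of the 7 members, 5 passed the filter on low counts, 3 met the criteria for up-regulation and 0 for down-regulation, and 4 had every LP sample above every NP sample. In the table as a whole 4.9% of genes tested were up-regulated, and every LP sample exceeded every NP sample for 21.1%. As the members were picked from these values, nothing is read from that comparison, and the 3 genes passed the filter through their LP reads.

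**Figure D1:**
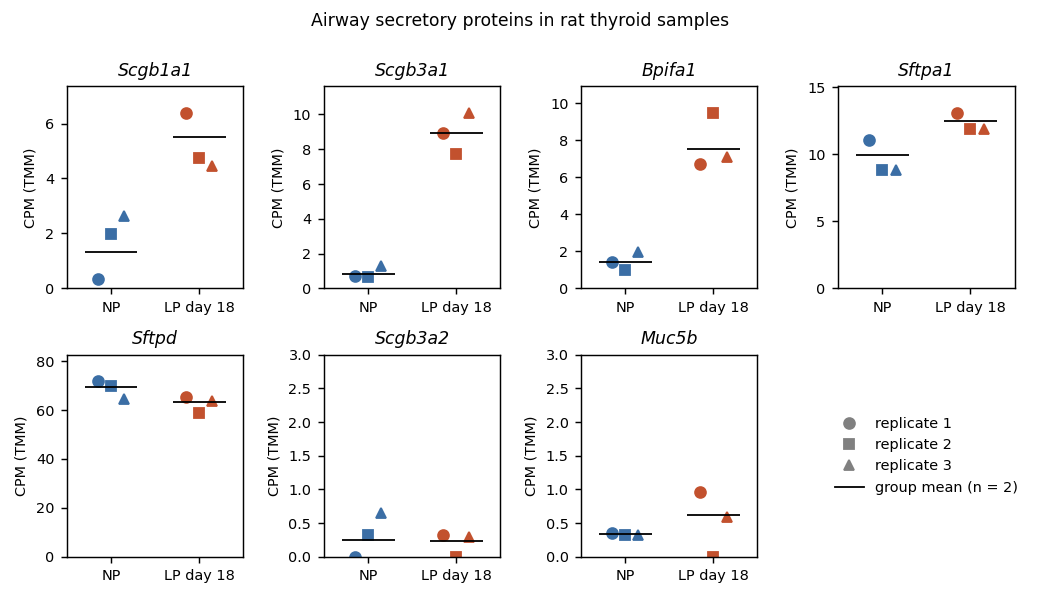
Expression of the 7 airway secretory genes in each sample, as CPM with TMM scaling on linear axes that start at 0. Circles, squares and triangles are replicates 1, 2 and 3, and lines are group means with replicates 2 and 3 counted as 1 sample (n = 2). Scgb1a1, Scgb3a1, Bpifa1 and Sftpa1 show no overlap between NP and LP, while Sftpd, Scgb3a2 and Muc5b overlap.

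Scgb3a1 (ENSRNOT00000051916), a secretoglobin of airway club and goblet cells also known as HIN-1, had 2, 2 and 4 reads in NP against 28, 26 and 34 in LP. All 3 NP samples were at or near the detection limit and all 3 LP samples were well above it. The level was 0.850 ± 0.190 CPM in NP and 8.92 ± 0.033 CPM in LP (SD, n = 2), a log2 fold change of 3.25 (SE 0.37), the largest among the members. The LP SD uses the average of replicates 2 and 3, at 7.71 and 10.1 CPM. It hides their spread and is not a measure of precision. Over the group sums of 8 and 88 reads, the ratio was 9.91, with a 95% interval from counting error of 4.82 to 23.7. It was 12.5 (3.15 to 108) within replicate 1 and 9.04 (3.92 to 25.6) within replicates 2 and 3.

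Bpifa1 (ENSRNOT00000018581), a lipid-binding antimicrobial protein of the nasal and upper airway lining, had 4, 3 and 6 reads in NP against 21, 32 and 24 in LP. The lowest LP sample lay well above the highest NP sample. Its level was 1.45 ± 0.033 CPM in NP and 7.51 ± 1.13 CPM in LP (SD, n = 2), a log2 fold change of 2.38 (SE 0.35). The NP SD likewise hides the spread of replicates 2 and 3, at 0.983 and 1.97 CPM. The ratio of summed reads (13 and 77) was 5.34 (95% interval 2.94 to 10.5). Within replicate 1 it was 4.69 (1.58 to 18.8), close to the 5.63 (2.76 to 12.9) of replicates 2 and 3.

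Scgb1a1 (ENSRNOT00000027342), the club cell secretory protein, which binds small hydrophobic molecules, had 1, 6 and 8 reads in NP against 20, 16 and 15 in LP. The groups did not overlap, and NP replicate 1 was the lowest sample while LP replicate 1 was the highest. The level was 1.33 ± 1.37 CPM in NP and 5.49 ± 1.27 CPM in LP (SD, n = 2), and the log2 fold change was 1.59 (SE 0.43). Summed reads of 15 and 51 gave a ratio of 3.06 (95% interval 1.70 to 5.87). Within replicate 1 the ratio was 17.9 (2.86 to 741), on 1 read in NP, and within replicates 2 and 3 it was 2.00 (1.03 to 4.07). These intervals overlapped, and whether the ratio differs between replicates was not tested. With replicate 1 of both groups left out, a setting chosen after the data were seen, the log2 fold change was 0.98 and Scgb1a1 no longer met the criteria.

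Scgb3a2 (ENSRNOT00000037796), a further secretoglobin of airway epithelium and a known NKX2-1 target, had 0, 1 and 2 reads in NP against 1, 0 and 1 in LP. Muc5b (ENSRNOT00000028967), the main gel-forming mucin of the lower airways, had 1, 1 and 1 read in NP and 3, 0 and 2 in LP. Both genes were at or under 3 reads in all 6 samples, so no fold is given, and a difference between NP and LP was not detectable at this depth.

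Sftpa1 (ENSRNOT00000047870), surfactant protein A, a collectin that binds microbial sugars and the surfactant lipids of the lung, had 31, 27 and 27 reads in NP against 41, 40 and 40 in LP. Every LP sample was above every NP sample in reads, in libraries that were also deeper. The same held in CPM, with 8.84 to 11.1 in NP and 11.9 to 13.1 in LP. On the scaled level the difference was small, 9.97 ± 1.57 CPM in NP and 12.5 ± 0.873 CPM in LP (SD, n = 2), with a log2 fold change of 0.35 (SE 0.19) that did not meet the criteria. The ratio of summed reads (85 and 121) was 1.28, with a 95% interval of 0.964 to 1.71 that included equal levels.

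Sftpd (ENSRNOT00000084813), surfactant protein D, a collectin secreted by lung epithelium and by many other mucosal and glandular tissues, had the most reads of the members, with 201, 213 and 196 in NP against 204, 199 and 215 in LP. The groups overlapped. The level was 69.5 ± 3.39 CPM in NP and 63.3 ± 2.67 CPM in LP (SD, n = 2), a log2 fold change of -0.14 (SE 0.076). The ratio of summed reads (610 and 618) was 0.913 (95% interval 0.815 to 1.02).

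The reads of the 2 surfactant proteins and those of the other 5 members were summed within each library. The 2 surfactant proteins together had 232, 240 and 223 reads in NP against 245, 239 and 255 in LP, or 73.2 to 82.9 CPM in NP and 70.8 to 78.3 CPM in LP. The other 5 members together had 8, 13 and 21 reads in NP against 73, 74 and 76 in LP, or 2.86 to 6.89 CPM in NP and 21.9 to 23.3 CPM in LP. The surfactant sum overlapped between the groups, and the sum of the other 5 did not. Most LP reads of the other 5 were from Scgb3a1 (88), Bpifa1 (77) and Scgb1a1 (51). These members were chosen with their LP and NP values known, so the sums and the ratio that follows only restate their differences. For every 100 surfactant protein reads, the other 5 members had 3.45, 5.42 and 9.42 reads in NP against 29.8, 31.0 and 29.8 in LP. This ratio is taken within a library and does not depend on its scaling. The 2 surfactant proteins also were set against each other, with 12.7 to 15.4 Sftpa1 reads per 100 Sftpd reads in NP and 18.6 to 20.1 in LP. Gene lengths were not used, so these ratios compare samples and not the levels of the genes.

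Other genes of the airway epithelium were examined in 7 lists, also chosen with earlier results of these data known. Of 111 genes listed, 76 were found and 36 tested. Of these, 0 were up-regulated by the edgeR test and Defb1 alone was down-regulated, against 4.9% and 0.537% of all genes tested. At so few genes, 0 up-regulated lies close to that share and is not read as a lack of change. The same holds for each list below with 0 called. The log2 fold change was above 0 for 21 of the 36, with a median of 0.11, against -0.0089 for all genes tested, and 10 of the 36 had an adjusted p-value below 0.05, as did 27% of all genes tested. At an unadjusted p-value below 0.05, 8 of the 36 were higher and 6 were lower (19.5% and 17.3% of all genes tested), and DESeq2 also called 0 up and 1 down. Genes that missed the filter on low counts are not part of these figures. Those with the highest mean CPM were Aqp3, Muc4, Slc34a2, Tekt1 and Dnah9. Without the filter their log2 fold changes were 0.97, 0.91, 0.83, -0.75 and -0.47, on few reads. Of the 76 genes, 24 had 3 reads or fewer in every sample, including Sftpb, the surfactant protein of alveolar type II cells, Bpifb1 and Lpo of airway glands, and the goblet cell genes Spdef and Tff3.

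Among other secretoglobins and club cell genes, 5 of 11 found were tested and 0 met the criteria (median log2 fold change 0.35). The sodium channel subunit Scnn1b had 312, 344 and 344 reads in NP against 447, 481 and 488 in LP, with a log2 fold change of 0.35 (SE 0.054, adjusted p = 7.80e-05). Its groups did not overlap, but the change did not reach the fold change cutoff of 2. Cyp2f4, a club cell cytochrome P450 that acts on small aromatic molecules, had 11, 22 and 24 reads in NP against 39, 40 and 39 in LP. It was higher in each LP sample, at 12.1 ± 0.526 CPM against 5.74 ± 2.55 CPM (SD, n = 2), with a log2 fold change of 0.90 (SE 0.24, adjusted p = 0.00856). Cyp4b1, another cytochrome P450 abundant in club cells, differed the other way, with 46, 54 and 73 reads in NP against 36, 35 and 39 in LP (log2 fold change -0.80, SE 0.18, adjusted p = 0.00294). Neither gene reached the fold change cutoff.

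Among mucins and goblet cell genes, 5 of 15 found were tested and 0 met the criteria (median log2 fold change 0.093). The transmembrane mucin Muc1, with 145 to 169 reads in NP and 165 to 208 in LP, had a log2 fold change of 0.093 (edgeR adjusted p = 0.525). For Fcgbp, a mucus protein, and Creb3l1, a regulator of secretory capacity, the log2 fold changes were -0.0014 and 0.12 (adjusted p = 0.998 and 0.759).

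Among mucosal defence secretions, 7 of 13 found were tested, 0 were up-regulated and 1 was down-regulated (median log2 fold change 0.12). Defb1, a beta-defensin made constitutively by many epithelia, had 59, 64 and 66 reads in NP against 26, 43 and 27 in LP. Every LP sample was below every NP sample, at 9.34 ± 1.47 CPM against 21.2 ± 0.160 CPM (SD, n = 2), and the gene fell by 1.12 on the log2 scale (SE 0.18, edgeR adjusted p = 0.000149). Bpifb2, of the same family as Bpifa1, had 155, 181 and 174 reads in NP against 142, 156 and 125 in LP, with a log2 fold change of -0.42 (SE 0.094, adjusted p = 0.00273). Wfdc2, an abundant secreted protease inhibitor of airway and glandular epithelium, had a log2 fold change of -0.17 (SE 0.053, adjusted p = 0.0271), with 923 to 968 reads in NP and 929 to 954 in LP. The values of Bpifb2 and Wfdc2 were thus on the opposite side of 0 from that of Bpifa1. Pigr, which carries antibodies across epithelium, had 5, 74 and 68 reads in NP against 15, 98 and 70 in LP. It was low in replicate 1 of both groups, and its log2 fold change was 0.17 (adjusted p = 0.848).

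**Figure D2:**
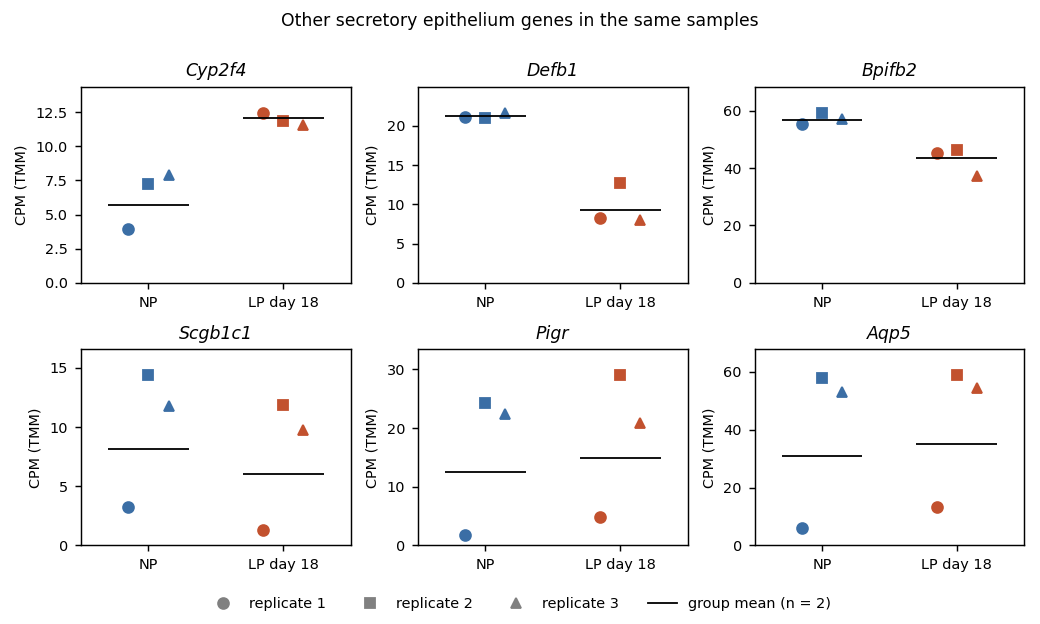
Expression of 6 other secretory epithelium genes in each sample, as CPM with TMM scaling on linear axes that start at 0. Circles, squares and triangles are replicates 1, 2 and 3, and lines are group means (n = 2). Cyp2f4 is higher and Defb1 and Bpifb2 are lower in every LP sample, while Scgb1c1, Pigr and Aqp5 are low in replicate 1 of both groups.

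Among surfactant and alveolar cell genes, 9 of 12 found were tested and 0 met the criteria (median log2 fold change 0.080). The protease Ctsh, the lipid acyltransferase Lpcat1 and the chloride channel protein Clic5 had log2 fold changes of -0.14, 0.080 and 0.30 (edgeR adjusted p = 0.272, 0.491 and 0.0326). Ager, a receptor abundant in alveolar type I cells, had 104, 106 and 98 reads in NP against 62, 63 and 70 in LP. It was lower in every LP sample, at a log2 fold change of -0.81 (SE 0.12, adjusted p = 5.14e-05), without reaching the fold change cutoff. Of the other collectins, 1 of 3 found was tested, the scavenger receptor Colec12, whose log2 fold change was -0.34 (adjusted p = 0.170). Mbl1, the collectin gene that lies between Sftpa1 and Sftpd in the order of genes on GRCr8, had 3 reads or fewer in every sample. Ciliated cell genes were represented by 2 tested genes of 10 found, Ccdc39 and Hydin, with log2 fold changes of -0.35 and 0.35 (adjusted p = 0.397 and 0.488), and the summed level of the list was 20.6 to 23.6 CPM in NP and 18.8 to 22.5 CPM in LP. Basal and squamous epithelium genes held 7 tested of 12 found, and 0 met the criteria (median log2 fold change 0.33). Within this list the cell adhesion gene Dsc3 was lower in LP (log2 fold change -0.59, SE 0.059, adjusted p = 5.31e-07) and the keratin Krt13 was higher (0.73, SE 0.16, adjusted p = 0.00283), both under the fold change cutoff, and Krt5 was at -0.038 (adjusted p = 0.908).

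The thyroid shares several airway lineage transcription factors with the lung, and 14 of the 18 examined were tested, of which 0 met the criteria (median log2 fold change 0.087). Nkx2-1 had 664, 743 and 714 reads in NP against 965, 904 and 975 in LP. It was higher in every LP sample, with a log2 fold change of 0.28 (SE 0.060, edgeR adjusted p = 0.00210), below the fold change cutoff. Sox9 and Id2 had log2 fold changes of 0.33 and 0.19 (adjusted p = 0.00142 and 0.0324). Among cytokine and growth factor signals known to act on mucosa, 10 of 20 found were tested and 0 met the criteria (median log2 fold change -0.090). Stat3, Il6st and Il4r were at 0.074, -0.046 and 0.18 (adjusted p = 0.416, 0.707 and 0.0674). Of 10 receptors for steroids and prolactin, 9 were tested and 0 met the criteria (median 0.050). Pgrmc1 and Pgrmc2, membrane progesterone receptor components, were at -0.096 and -0.20 (adjusted p = 0.355 and 0.0819), and the glucocorticoid receptor Nr3c1 at 0.28 (adjusted p = 0.0206).

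Marker genes of tissues that adjoin the thyroid were followed in the same samples. Skeletal muscle genes differed in the same direction as Scgb3a1, Bpifa1 and Scgb1a1: 10 of 11 tested were up-regulated, with a median log2 fold change of 7.66, and their summed level was 23.2 to 73.0 CPM in NP and 4336 to 4628 CPM in LP. Actn2, a Z-disc protein, had 2, 2 and 6 reads in NP against 1453, 1502 and 1500 in LP, and the myosin Myh1 had 0, 0 and 0 reads in NP against 119, 105 and 109 in LP. Tracheal cartilage genes had 0 of 4 tested called, a median of -0.23 and a sum of 109 to 123 CPM in NP and 113 to 122 CPM in LP. In that list Col11a2 was at 0.33, Col9a3 at -0.27 and Cytl1 at -0.49 (edgeR adjusted p = 0.0196, 0.0989 and 0.0281). The sum rests mostly on these 3 genes, as only 4 of the 11 genes found were tested. Those not tested had few reads. Chad had 7, 3 and 9 in NP against 7, 6 and 11 in LP, and Col9a2 5, 5 and 6 against 5, 6 and 6. Comp had 1, 4 and 1 in NP against 5, 8 and 4 in LP, and Col2a1 0, 3 and 2 against 5, 2 and 5. Another cartilage matrix gene, Matn1, had 3 reads or fewer in every sample (0, 0 and 0 against 2, 0 and 1). At these counts the level of cartilage was not well measured. Parathyroid genes, headed by Pth, summed to 10240 to 11048 CPM in NP and 9434 to 10194 CPM in LP, with 0 of 6 called and a median of 0.042, and Pth itself was at -0.30 (SE 0.035, adjusted p = 3.42e-06). The salivary gland list had 1 tested gene of 2 found, Egf, at 0.50 (adjusted p = 0.0350), and a sum of 12.8 to 18.6 CPM in NP and 20.2 to 27.2 CPM in LP, and Amy1a had 1, 0 and 0 reads in NP against 6, 3 and 3 in LP. Without the filter, Amy1a was called up-regulated (log2 fold change 3.04, adjusted p = 0.0450), on 1 read in NP. Of 12 thyroid follicular cell genes tested, 0 met the criteria (median -0.057). At an edgeR adjusted p-value below 0.05, 4 were lower and 3 higher, and 27% of all genes tested were below it. The iodide transporter Slc5a5 was lowest, at -0.94 (adjusted p = 3.08e-10), followed by the TSH receptor Tshr at -0.68 (adjusted p = 3.99e-07), while thyroglobulin (Tg) was at 0.063 (adjusted p = 0.0600). Apart from skeletal muscle, these lists and those of transcription factors, signals and receptors held 55 tested genes. With the filter on low counts, 0 of the 55 were called by edgeR or DESeq2, while edgeR called 4.9% of all genes tested up and 0.537% down. At an unadjusted edgeR p-value below 0.05, 15 were higher and 10 lower (19.5% and 17.3% of all genes tested). The part of adjoining tissue in the differences of the members was not tested.

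**Figure D3:**
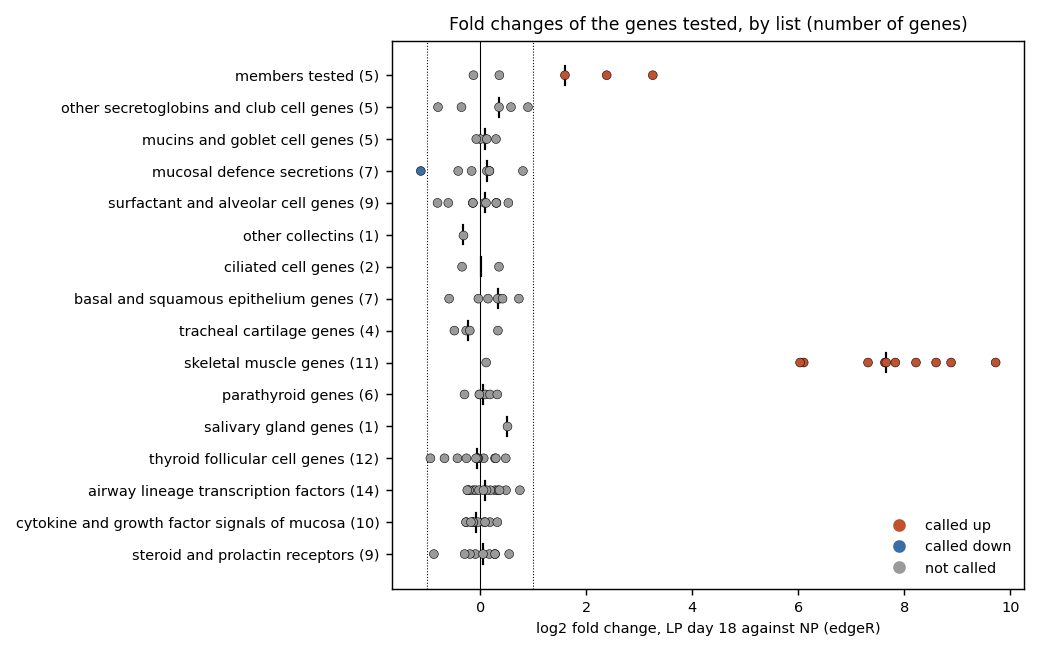
Log2 fold change of LP against NP (edgeR) for each tested gene of the members and of the 15 lists, with the number of tested genes in parentheses. Red and blue points met the criteria for up- and down-regulation, grey points did not, black ticks are medians and dotted lines mark a fold change of 2. Red points lie among the members (3 of 5) and the skeletal muscle genes (10 of 11), and the single blue point is Defb1.

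Genes with the profile most like that of a member over the 6 samples were taken from 11675 genes by the smallest root mean square (RMS) difference of centred log2(CPM + 1) values. Closest to Scgb3a1 was Uhrf1, which maintains DNA methylation in dividing cells, with an RMS difference of 0.144 and reads of 4, 5 and 7 in NP against 35, 38 and 41 in LP, followed by Phospho1 (0.149) and Art3 (0.178). For Bpifa1 they were Sspn, a muscle membrane complex protein, at 0.162 with 27, 19 and 29 reads in NP against 75, 105 and 94 in LP, then Pink1 (0.171) and Dusp10 (0.175). For Scgb1a1 they were Kcnma1, a potassium channel, at 0.168 with 7, 16 and 21 reads in NP against 42, 31 and 38 in LP, then Ppm1j (0.215) and Cd55 (0.219). The nearest genes were picked on these same 6 values. Their high LP values, and the low NP replicate 1 of Kcnma1, therefore follow from the choice and are not a result. Sftpa1 was nearest to Poldip2 (0.0360), Spata2 (0.0370) and Boc (0.0419), and Sftpd to RGD1310352 (0.0157), Cacybp (0.0191) and Galnt5 (0.0232). Likeness at so few reads is a description only, and with a pseudocount of 0.1 in place of 1, 7 of the 15 were found again.

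Neighbouring genes in the GRCr8 gene order were examined for shared reads or shared differences, and those that were tested did not meet the criteria. Ahnak, Eef1g and Asrgl1 near Scgb1a1 had log2 fold changes of -0.18, -0.13 and 0.17, and Flt4 and Cnot6 near Scgb3a1 had -0.48 and 0.076. Bpifb1, near Bpifa1 in the BPI-fold gene cluster, had 0, 3 and 0 reads in NP against 2, 3 and 1 in LP, at the detection limit. No member with reads overlapped another annotated gene on that build, although reads were mapped to rn5 with a kit that is not stated to keep the strand.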

How the data were processed

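Polyadenylated RNA from 3 NP and 3 LP rat thyroid samples was sequenced (TruSeq libraries, HiSeq). The authors mapped the reads to rn5 with TopHat 1.4.0 and counted them on Ensembl gene models with HTSeq-count, and the deposited values are raw read counts per gene without normalization, 1 transcript identifier being listed for each gene. Reads shared with a near-identical copy of a gene may be lost or split by such counting.

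Calls were made with edgeR 4.0.16 (limma 3.58.1, run under R 4.3.3): quasi-likelihood test, TMM scaling, default low-count filter (11738 of 15388 genes kept, minimum count 10), Benjamini-Hochberg adjustment over all genes kept. A call needed a log2 fold change beyond 1 in either direction and an adjusted p-value below 0.05. The SE of a log2 fold change was its size over the root of F. Member fold changes and their SEs came from the same fit without the filter, as did the fold changes of list genes that were not tested. CPM used library totals with TMM factors. Ratios of reads used library sizes with TMM factors, with exact conditional binomial 95% intervals.

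The members and the 15 lists were chosen with earlier results of these data known. Named list genes are the 3 of highest mean CPM and the 3 most changed among those called in each list. Scgb1c1, Aqp5, Ager, Slc5a5, Tshr, Acta1, Amy1a and genes named for having 3 reads or fewer were chosen after their values were seen. So were the list genes that are named without having been tested. Nearest profiles were sought among genes with a mean of at least 10 reads, for members with as many.

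Samples were grouped by their titles and none was left out. Pairs of samples were compared by chi-square over genes with at least 10 reads. Replicate numbers were checked for pairing by the correlation of deviations from group means, which was 0.48, 0.22 and 0.18 for same-numbered samples, and NP replicate 2 correlated about as well with LP replicate 3 (0.21). Replicate 1 correlated at -0.30 to -0.33 with replicates 2 and 3 of the other group. These values are linked, as deviations sum to 0 within a group. The variation between samples estimated by edgeR was 0.065 without a replicate block, as in the main fit, and 0.013 with it. The labels do not say how replicates relate to animals, so p-values measure only the spread between these samples. Alternatives were a replicate block, replicates 2 and 3 summed, each replicate left out, DESeq2 size factors, TMM without muscle genes, library totals alone, no filter, a mean of at least 50 reads, and DESeq2 1.42.0. The steps were tested on simulated data. Promoters came from RefSeq (GRCr8), a build other than that of the counts.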

Additional observations from a re-analysis of the deposited data

How the results depend on the processing

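Calls were recomputed under each alternative. No log2 fold change of a member reversed, and the ranges were 3.06 to 3.62 for Scgb3a1, 2.16 to 2.66 for Bpifa1, 0.98 to 2.07 for Scgb1a1, 0.29 to 0.46 for Sftpa1 and -0.20 to -0.092 for Sftpd. All 3 members stayed called except with a mean of at least 50 reads, where only Sftpd was tested and 0 were called, and without replicate 1 of both groups (an alternative added after the data were seen), where 2 were called and Scgb1a1 was not. The stricter filter also gave 286 up-regulated and 29 down-regulated genes and 0 down-regulated airway list genes, since fewer genes were tested. The replicate block gave 576 and 65 genes and changed no call of a member. Leaving out one replicate gave 577 to 625 and 68 to 79 genes. For the 7 airway lists it gave 0 to 1 up-regulated genes (Cyp2f4 without NP replicate 3, Muc4 without LP replicate 1, Aqp3 without LP replicate 3), and for the 8 other lists 0 to 1 down-regulated genes (Gper1 without LP replicate 2). Library totals alone gave 1 down-regulated gene in the other lists, Slc5a5 (log2 fold change -1.02), and 528 and 82 genes overall. DESeq2 gave 540 and 54. Without the filter, the fit behind the fold changes of the members gave 677 and 86 genes, with 12 up-regulated in the other lists, among them the salivary gene Amy1a. Read depth is one limit: Scgb3a2 and Muc5b could not be compared, and the intervals of Scgb1a1, Scgb3a1 and Bpifa1 are wide because their NP levels rest on 15, 8 and 13 reads.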

Other observations

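Several epithelial genes separated replicate 1 from replicates 2 and 3 in both groups, a pattern noticed in the data. Aqp5, a water channel of glandular and alveolar cells, had 17, 177 and 162 reads in NP against 42, 199 and 184 in LP. Scgb1c1, a secretoglobin of the nasal mucosa, had 9, 44 and 36 reads in NP against 4, 40 and 33 in LP. Both were low in replicate 1 whichever the group, and the levels of NP and LP overlapped. The mean CPM of replicates 2 and 3 over that of replicate 1 was 13.0 in NP and 5.20 in LP for Pigr, 9.15 and 4.23 for Aqp5, and 4.08 and 8.47 for Scgb1c1. Acta1, skeletal muscle actin, had 0, 166 and 144 reads in NP against 0, 186 and 185 in LP, unlike the 10 muscle genes that were up-regulated. LP replicate 1, with 0 Acta1 reads, had 1453 reads of Actn2 and 4554 of Tnnc2. Whether this row counts all reads of Acta1 was not tested, and it is not read as a steady level of the gene.

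The members did not share this pattern. The same ratio was 1.38 in NP and 0.995 in LP for Scgb3a1, 1.03 and 1.24 for Bpifa1, 0.799 and 0.906 for Sftpa1, and 0.933 and 0.942 for Sftpd. For Scgb1a1 it was 6.42 in NP and 0.720 in LP, on 1 read in NP replicate 1. Of 110 list genes and members with enough reads, 4 were over 3-fold higher in replicates 2 and 3 in both groups, and of 11680 genes 47 were.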
